A study of Homo sapiens with 6 samples.

Results

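In cells of the human embryonic kidney line HEK293, 586 convergent pairs of poly(A) sites were found, in which RNA of the plus strand and RNA of the minus strand end within 1000 nt of each other, tail to tail. A site is the position with the most RNA 3′ ends together with all ends within 25 nt on its strand. Sites were kept at a mean level of at least 5 CPM (counts per 1000000 reads of the library, averaged over the 6 libraries) outside the mitochondrial genome. Each kept plus-strand site was joined to its nearest kept minus-strand site. The 586 pairs take in 586 of 8678 plus-strand sites (6.75%) and 479 of 8422 minus-strand sites (5.69%), which makes 1065 member sites of 17100 kept sites. In 166 pairs (28.3%) the plus-strand site has the higher coordinate, and these pairs are called overlapping. Their RNAs overlap in sequence at the ends provided that both start outside the interval between the sites. The starts of the RNAs were not read. In the other 420 pairs (71.7%) the ends do not cross and the pairs are called separated. The members were chosen by the pooled level and the position of the sites, so these are given as a description only.

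A gene is transcribed past its poly(A) signal before the RNA is cleaved and receives its poly(A) tail, and many genes carry several poly(A) sites that compete for use. Where genes face each other tail to tail, the choice of site decides whether their mRNAs share complementary sequence at the 3′ ends. Cleavage factor Im (CF Im) takes part in this choice by binding the nascent transcript ahead of its cleavage site. Its small subunit is CF Im25, and CF Im59 and CF Im68 are alternative large subunits.

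The 3′ ends were read by A-seq, which selects poly(A) RNA, fragments it and primes reverse transcription at the start of the tail. RNA was fragmented by alkaline hydrolysis for cells treated with siRNA to CF Im25, siRNA to CF Im59, a scrambled siRNA or none, and by RNase I for cells treated with siRNA to CF Im68 or a scrambled siRNA. The siRNA was given by lipid transfection and the cells were harvested after 3 days, so all knockdown groups share the transfection with the scrambled controls but not with the cells without siRNA. Each knockdown is set against the scrambled library of its own fragmentation method, and CF Im25 and CF Im59 share that control library. Each group held 1 library, so no difference could be set against a spread between replicates, no p-values are given, and a call below is a rule of size. The libraries held 5351980 to 18183644 reads, of which 84.3% to 91.2% lay at nuclear sites of at least 1 CPM. The member sites held 7.47% to 8.53% of those reads in each library. Levels of single libraries below are CPM of the reads at nuclear sites. Positions are those of the files' build hg19; gene annotation and sequence of that build were not used here, so the loci are named by position, the loss of the siRNA targets was not analysed here, and neither were marker genes of the cell line. In bulk RNA, fewer cells and less RNA per cell cannot be told apart.

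Plus-strand sites were most dense right beside a minus-strand site. At a signed distance (plus position minus minus position) of 1 to 25 nt there were 25 plus-strand sites, or 100 per 100 nt, and at 26 to 100 nt there were 57, or 76.0 per 100 nt. On the overlapping side the density then dropped to 23.0 per 100 nt at 101 to 200 nt, 11 at 201 to 500 nt and 5.60 at 501 to 1000 nt. On the separated side it was 150 per 100 nt at 0 to 25 nt, counting 39 sites, 65.3 at 26 to 100 nt, 60.0 at 101 to 200 nt, 38.3 at 201 to 500 nt and 31.4 at 501 to 1000 nt. The density thus dropped more steeply with overlap than with separation. Beyond the limit the plus-strand sites numbered 3.70 per 100 nt on the overlapping side and 19.5 on the separated side at 1001 to 2000 nt. The median distance was 103 nt (interquartile range 40.3 to 359) in overlapping pairs and 347 nt (129 to 637) in separated pairs.

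**Figure D1:**
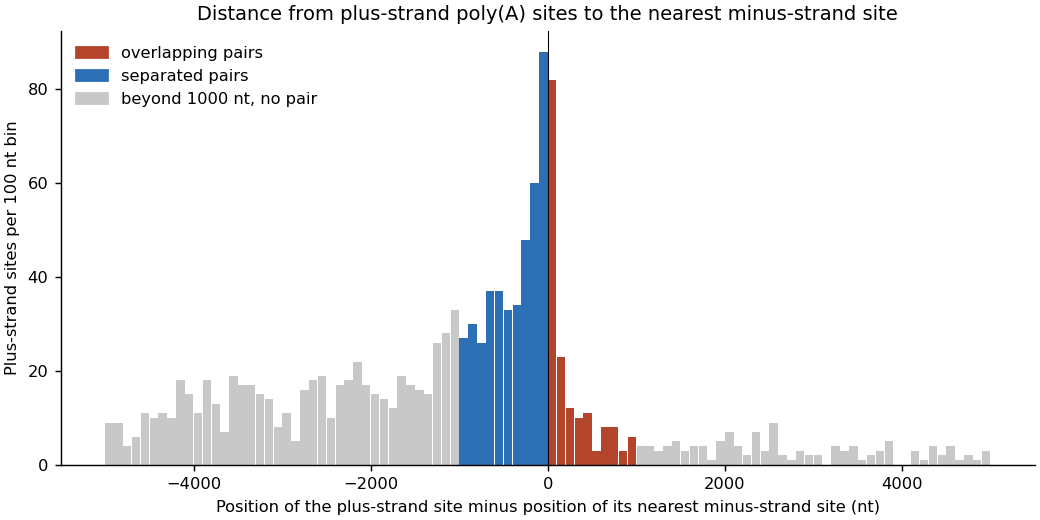
Number of plus-strand poly(A) sites per 100 nt bin (vertical axis) by the position of the site minus that of its nearest minus-strand site in nt (horizontal axis), with overlapping pairs to the right of 0, separated pairs to the left, and sites beyond 1000 nt in grey. Bins next to 0 are the tallest, and the right side drops within 200 nt while the left side declines slowly.

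The limits of the rule cut through a continuous range. The longest overlap inside 1000 nt was 994 nt (plus 132397878 and minus 132396884 on chromosome 9), and the shortest outside was 1024 nt (21967314 and 21966290 on chromosome 14). Among separated pairs, 998 nt was the last inside (32898481 and 32899479 on chromosome 12) and 1001 nt the first outside (48648474 and 48649475 on chromosome 8). The weakest member, the minus-strand site at 12986024 of chromosome 19, had a mean of 5.0041 CPM, and the strongest site missed had 4.9991 CPM (minus strand, 50882765 of chromosome 22).

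Members were not spread evenly. Of the plus-strand sites of chromosome 17, 11.1% were in pairs (62 of 559), followed by 10.6% on chromosome 16, 10.1% on chromosome 22, 9.98% on chromosome 11 and 9.18% on chromosome 19. The lowest shares were 1.60% on chromosome 13 (3 of 187) and 2.21% on the X chromosome (6 of 272). Sites of at least 1 CPM on one strand were joined into a unit where gaps were at most 5000 nt; a unit can hold the ends of neighbouring transcripts and is not a gene. The pairs fell into 465 loci, each the meeting of a plus-strand and a minus-strand unit, and 368 loci had 1 pair while the largest had 6. Members more often stood last of several sites of their unit in the direction of transcription (32.0%, against 24.2% of the sites outside pairs). They stood less often first (15.1% against 19.6%) or between others (23.0% against 28.9%). These percents are of all members and of all sites outside pairs, those alone in their unit included. The members with no other site in their unit made up 29.9%, against 27.3% outside pairs. The spread of ends within a site differed little: the top position held a median of 62.8% to 64.7% of a member's reads in the alkaline libraries and 51.8% to 52.6% in the RNase I libraries, against 65.0% to 67.1% and 51.9% to 53.6% at sites outside pairs.

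The levels of paired sites showed no relation in rank. Across the 166 overlapping pairs Spearman's rho of the mean levels was 0.02, and across the 420 separated pairs it was -0.003, as a description of pairs read in the same 6 libraries. The higher site exceeded the lower one by a median factor of 2.59 in overlapping and 2.89 in separated pairs. In 63 overlapping and 136 separated pairs the sites were within 2-fold of each other, and in 21 and 62 pairs they were over 10-fold apart. The plus-strand site was the higher one in 87 overlapping and 216 separated pairs. The median level of the lower site was 9.66 CPM in overlapping and 11.5 CPM in separated pairs. Over all member sites the median was 19.4 CPM, against 13.1 CPM outside pairs.

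Among the overlapping pairs with the strongest lower site, the first lay on chromosome 6 at plus 160200083 and minus 160199987, an overlap of 96 nt. Its plus-strand site had 52.0 CPM with CF Im25 siRNA, 66.7 with CF Im59 siRNA, 115 with scrambled siRNA and 98.5 with no siRNA in the alkaline libraries, and 140 with CF Im68 siRNA against 317 with scrambled siRNA in the RNase I libraries. The minus-strand site had 433, 362, 425 and 281 CPM in the same order of alkaline libraries and 373 against 292 CPM with RNase I. The plus-strand site was thus lower in all 3 knockdowns than in their scrambled controls, while its partner was not lower with CF Im25 or CF Im68 siRNA. On chromosome 12, plus 57910437 overlapped minus 57910377 by 60 nt, and its level differed between the fragmentation methods: 952, 1171, 1751 and 1472 CPM in the alkaline libraries with CF Im25, CF Im59, scrambled and no siRNA, but 96.3 CPM with CF Im68 siRNA and 170 CPM with scrambled siRNA after RNase I. The third pair, plus 10226042 and minus 10225691 of chromosome 19, averaged 67.3 and 625 CPM.

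The strongest separated pair, plus 59062083 and minus 59062934 of chromosome 19, averaged 328 and 205 CPM over an interval of 851 nt. Second came plus 2639039 and minus 2639043 of chromosome 20, whose ends lie 4 nt apart and averaged 174 and 739 CPM. Its plus-strand site held 214, 277, 182 and 242 CPM with CF Im25, CF Im59, scrambled and no siRNA, and 123 and 124 CPM with CF Im68 and scrambled siRNA after RNase I. The knockdown libraries here lay within 2-fold of their control. The third, plus 13064449 and minus 13064976 of chromosome 19, averaged 146 and 306 CPM.

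Some sites faced each other with no gap at all. In 5 pairs both strands had their top position at the same coordinate; they are counted as separated, and the first 3 by chromosome lie at 45584803 of chromosome 14, 34851600 of chromosome 17 and 73126324 of chromosome 17, with 181 and 37.2, 19.4 and 16.6, and 14.6 and 143 CPM on the plus and minus strand. Overlaps of 1 nt were found at 111955873 of chromosome 11, 26887898 of chromosome 22 and 15225796 of chromosome 19. At the first of these the plus-strand site had 27.8, 49.1, 42.7 and 58.4 CPM in the alkaline libraries with CF Im25, CF Im59, scrambled and no siRNA, and 12.8 CPM with CF Im68 siRNA against 29.9 CPM with scrambled siRNA after RNase I. Its minus-strand partner had 26.4, 16.1, 20.4 and 17.3 CPM in the alkaline libraries and 907 against 900 CPM after RNase I. The minus-strand site thus differed between the fragmentation methods, while on the plus strand the RNase I scrambled library lay within the range of the alkaline ones. In pairs 1 to 25 nt into overlap the higher site exceeded the lower by a median of 4.14-fold, and in those 0 to 25 nt apart by 3.08-fold. The longest overlaps, besides the 994 nt pair, were 976 nt on chromosome 2 (74186073 and 74185097, averaging 52.0 and 8.92 CPM) and 959 nt on chromosome 6 (170104963 and 170104004, averaging 15.7 and 16.4 CPM).

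The change of reads at the member sites was measured next. A site was called where its scaled reads differed at least 2-fold, 1 of the libraries had at least 50 reads and the exact 95% interval of the ratio, which covers counting error only, excluded 1. Between 913 and 1029 of the 1065 members passed the minimum of reads in these comparisons. With CF Im25 siRNA, 89 member sites were called higher and 128 lower than with scrambled siRNA out of 1009, which is 21.5%, beside 29.0% of all kept sites. With CF Im59 siRNA, 65 were higher and 76 lower out of 1012 (13.9%, beside 18.2% of all kept sites). CF Im68 siRNA gave 37 higher and 66 lower out of 913 (11.3%, beside 26.8%). Scrambled siRNA against no siRNA gave 20 higher and 33 lower out of 1029 (5.15%, beside 6.96%). The share called was therefore below that of all sites in every comparison, by the widest margin after CF Im68 siRNA. Overlapping pairs had 25.0% of their sites called with CF Im25 siRNA, 16.1% with CF Im59 siRNA and 13.2% with CF Im68 siRNA, and separated pairs 20.6%, 13.5% and 10.7%. Median log2 ratios of the members were -0.10, -0.10 and 0.03 for CF Im25, CF Im59 and CF Im68 siRNA, against -0.03, -0.07 and 0.01 over all sites.

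The split into higher and lower sites depends on the scaling. TMM scaling, which sets the bulk of the sites to no change, moved every log2 ratio by 0.01 for CF Im25, 0.12 for CF Im59, 0.18 for CF Im68 and -0.12 for scrambled against no siRNA. With it the members called higher and lower numbered 89 and 122 (CF Im25), 79 and 53 (CF Im59), 61 and 46 (CF Im68) and 13 and 47 (scrambled against no siRNA). The direction with more calls thus turned for CF Im59 and CF Im68, and no direction is drawn for them. The share called hardly moved, at 20.9%, 13.0%, 11.7% and 5.83%. Against no siRNA instead of scrambled siRNA, CF Im25 siRNA gave 46 higher and 101 lower members out of 1034 (14.2%, beside 24.5% of all sites), and CF Im59 siRNA 23 and 45 out of 1034 (6.58%, beside 9.48%), so the counts of both knockdowns rest in part on the shared scrambled library.

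The gap between members and other sites was present at every level and place in the unit for each knockdown over its scrambled control. It was also present, though smaller in points, for scrambled against no siRNA, so it is not particular to a knockdown. At 5 to under 10 CPM, 18.1% of members and 37.5% of sites outside pairs were called with CF Im68 siRNA, and at 50 CPM or more 4.44% and 14.8%. With CF Im25 siRNA the same strata gave 33.3% and 37.1%, and 11.7% and 17.7%. Members alone in their unit were called in 4.41% of cases with CF Im68 siRNA, against 14.2% outside pairs, and members first in their unit in 6.71% against 33.1%. For members last in their unit the shares were 16.3% against 27.5%. On chromosomes 11, 16, 17, 19 and 22, where pairs are dense, 6.02% of the members and 19.9% of the other sites were called with CF Im68 siRNA, and on the remaining chromosomes 14.5% and 30.5%. Sites outside pairs were thus also called less often on those 5 chromosomes.

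Distance to the other strand separated the sites beyond the limit of the pairs too. Here the nearest opposite-strand site was taken for sites of both strands. With CF Im68 siRNA 11.7% of the sites were called within 1000 nt of it, 21.0% at 1001 to 5000 nt, 21.2% at 5001 to 20000 nt, 27.0% at 20001 to 100000 nt and 33.2% beyond. CF Im25 siRNA gave 21.3%, 25.8%, 25.8%, 28.7% and 32.8%, and CF Im59 siRNA 13.9%, 16.1%, 16.9%, 18.4% and 19.8%. Scrambled against no siRNA stayed between 5.08% and 7.82%. The median level of the tested sites moved with this distance, at 23.8, 18.2, 18.1, 16.8 and 14.9 CPM in the CF Im68 comparison, and its part in the trend was not tested beyond the levels given above.

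**Figure D2:**
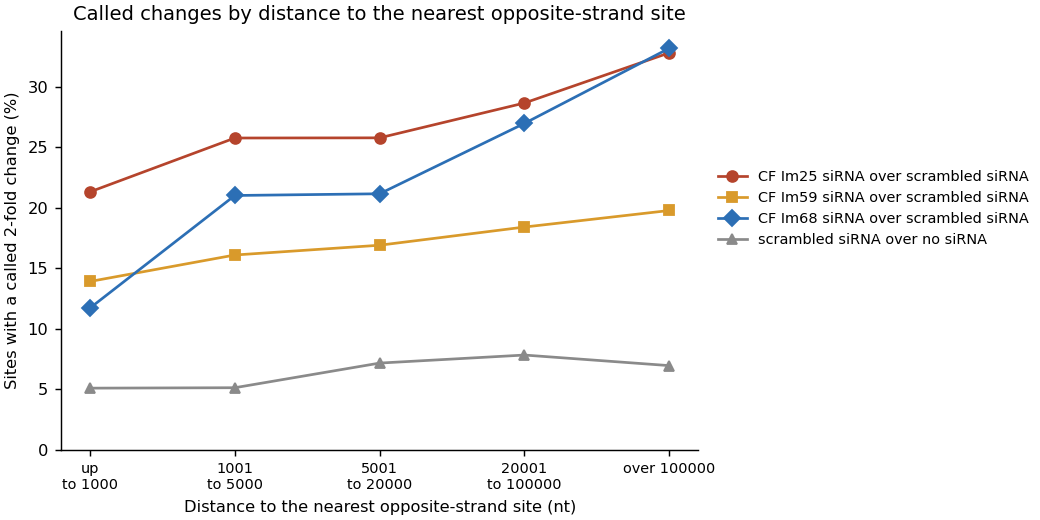
Percent of tested sites with a called 2-fold change of reads (vertical axis) by distance to the nearest kept site on the opposite strand in nt (horizontal axis), with 1 line per comparison. The CF Im68 line climbs from 11.7% within 1000 nt to 33.2% beyond 100000 nt, and the line of scrambled against no siRNA stays under 8%.

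The largest changes of single members were as follows, each with its counting interval. On chromosome 1 the minus-strand site at 245006308, which overlaps the plus-strand site at 245006586 by 278 nt, had 37.6 CPM with CF Im25 siRNA, 8.93 with CF Im59 siRNA, 0.922 with scrambled siRNA and 1.33 with no siRNA, and after RNase I 12.5 CPM with CF Im68 siRNA and 17.3 with scrambled siRNA. It was 40.8-fold higher (20.5 to 95.3; 364 against 8 reads) with CF Im25 siRNA and 9.69-fold higher (4.74 to 23.0) with CF Im59 siRNA, and not higher with CF Im68 siRNA. Its partner had 163 against 184 reads with CF Im25 siRNA, a ratio of 0.795 (0.640 to 0.987).

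The plus-strand site at 170103355 of chromosome 6 had 83.5 CPM with CF Im25 siRNA, 15.3 with CF Im59 siRNA, 9.33 with scrambled and 10.5 with no siRNA, and 34.3 CPM with CF Im68 siRNA against 2.77 with scrambled siRNA after RNase I. It rose 8.95-fold (7.12 to 11.4) with CF Im25 siRNA and 12.4-fold (7.15 to 23.5) with CF Im68 siRNA. The plus-strand site at 56864766 of chromosome 12 rose 11.8-fold (7.56 to 19.4) with CF Im25 and 8.67-fold (5.55 to 14.3) with CF Im59 siRNA over scrambled siRNA. That control was itself the low library: the site had 28.5, 21.0, 2.42 and 14.4 CPM with CF Im25, CF Im59, scrambled and no siRNA, and against no siRNA neither change reached 2-fold (log2 ratios of 0.99 and 0.54). The same holds for the third rise with CF Im59 siRNA, the plus-strand site at 59495418 of chromosome 8 (5.86-fold, 4.54 to 7.68), with 45.3 CPM against 7.72 CPM with scrambled and 30.3 CPM with no siRNA (log2 ratio of 0.58 against no siRNA).

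The deepest falls with CF Im25 siRNA were on chromosomes 7, 9 and 2. The plus-strand site at 27192346 of chromosome 7 had 1.34 CPM with CF Im25 siRNA, 2.25 with CF Im59 siRNA, 24.3 with scrambled and 13.4 with no siRNA, which is 18.1-fold lower (10.3 to 34.5) than scrambled siRNA for CF Im25 and 10.8-fold lower (7.15 to 16.9) for CF Im59. After RNase I it had 2.92 CPM with CF Im68 siRNA and 4.69 with scrambled siRNA. It thus met the limit of 5 CPM through the alkaline scrambled library, its highest, and its fall is in part fixed by the choice of sites. At 88641877 of chromosome 9 the plus-strand site had 3.00 CPM with CF Im25 siRNA against 39.6 CPM with scrambled siRNA (13.2-fold lower), with 14.1 CPM with CF Im59 and 28.2 CPM with no siRNA. The plus-strand site at 86440358 of chromosome 2 had 8.06 CPM with CF Im25 siRNA, 33.4 with CF Im59 siRNA, 84.3 with scrambled and 50.2 with no siRNA, and after RNase I 0.639 CPM with CF Im68 siRNA and 10.5 with scrambled siRNA. It was 10.5-fold lower (8.27 to 13.4) with CF Im25 siRNA, and its share of its unit was 17.9% against 68%. The other 2 falls with CF Im59 siRNA were 4.72-fold (3.73 to 6.02) at plus 2227426 of chromosome 17 and 4.34-fold (3.53 to 5.38) at plus 27211552 of chromosome 7.

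After CF Im68 siRNA the plus-strand site at 18966228 of chromosome 21, 236 nt past its partner, had 30.2 CPM against 3.63 CPM with scrambled siRNA, 8.33-fold higher (5.12 to 14.5). In the alkaline libraries it had 67.1 CPM with CF Im25 siRNA, 15.1 with CF Im59, 10.6 with scrambled and 10.0 with no siRNA. The minus-strand site at 88642615 of chromosome 9 had 259 CPM with CF Im68 siRNA against 43.7 CPM with scrambled siRNA, 5.92-fold higher (5.14 to 6.86). The falls were all at sites last in their unit. The minus-strand site at 12207328 of chromosome 10 had 2.19 against 31.8 CPM (14.5-fold lower, 9.39 to 23.4), and its share of the unit was 0.566% against 9.44%. The minus-strand site at 64013980 of chromosome 5 had 3.56 against 44.6 CPM (12.5-fold lower, 8.87 to 18.1), and the plus-strand site at 70102950 of chromosome 10 had 5.57 against 60.2 CPM (10.8-fold lower, 8.17 to 14.5). With CF Im25 siRNA these 3 sites had 5.27 against 15.2, 2.79 against 8.64 and 2.48 against 3.46 CPM. The site at 70102950 had 2.48 to 6.05 CPM in the libraries other than the RNase I scrambled one. It thus met the limit of 5 CPM through that library, and its fall is in part fixed by the choice of sites.

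The alkaline scrambled and no siRNA libraries, which also differ in lipid transfection, differed at some members as well. Against no siRNA the minus-strand site at 53458101 of chromosome 12 was 5.35-fold higher (4.10 to 7.03), the plus-strand site at 50683610 of chromosome 22 was 3.21-fold higher (2.50 to 4.15), and the plus-strand site at 99675798 of chromosome 15 was 2.77-fold higher (2.08 to 3.70). The chromosome 22 site had 19.8 CPM in the alkaline scrambled library and 2.46 to 7.24 CPM in the others. It met the limit of 5 CPM through that scrambled library, and its rise is in part fixed by the choice of sites. The falls were 5.95-fold (3.80 to 9.79) at plus 56864766 and 5.02-fold (3.93 to 6.49) at plus 56863803 of chromosome 12, which share a locus, and 4.15-fold (2.63 to 6.88) at plus 23527855 of chromosome 14. Differences of this size were therefore present between alkaline libraries without a targeting siRNA.

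Changes on one strand of a pair showed little relation to those on the other. Both were tested in 523 pairs for CF Im25 siRNA: 11 had both sites called higher, 9 both lower, 13 moved in opposite directions, 173 had 1 site called and 317 none. For CF Im59 siRNA, of 528 pairs 4 were higher at both, 4 lower at both and 4 opposite. CF Im68 siRNA gave 2 pairs higher at both, 0 lower at both and 7 opposite out of 426, and scrambled against no siRNA gave 0, 2 and 3 out of 545. Across pairs, Pearson's r of the plus-strand and minus-strand log2 ratios was 0.02, 0.01, -0.06 and 0.03 in these comparisons, with Spearman's rho at 0.05, 0.01, -0.08 and 0.01. These are descriptions over pairs that share their 2 libraries. With 1 pair per locus, r was -0.02 for each of the 3 knockdowns.

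**Figure D3:**
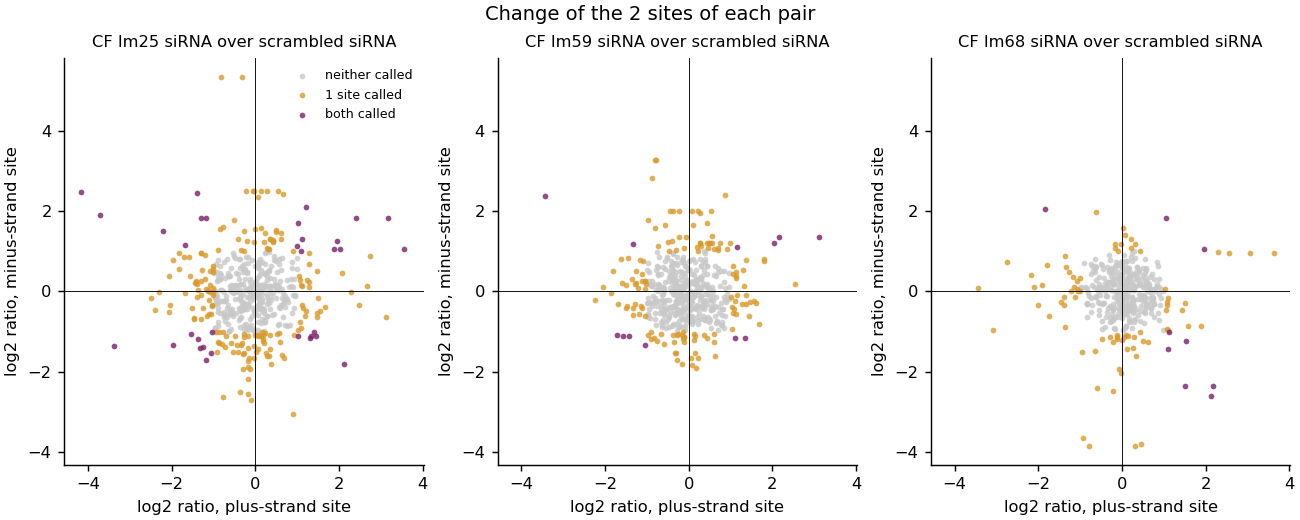
Log2 ratio of the plus-strand site (horizontal axis) and of the minus-strand site (vertical axis) of each pair with both sites tested, 1 panel per knockdown over its scrambled control; grey points have neither site called, orange points 1 and purple points both. The points scatter around 0 without a slope, and points with both sites called lie in all quadrants after CF Im25 siRNA.

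The opposite pairs with the largest changes were all separated. On chromosome 7 the pair at plus 27192346 and minus 27193340, 994 nt apart, fell 18.1-fold on the plus strand and rose 5.56-fold (3.45 to 9.42) on the minus strand with CF Im25 siRNA; with CF Im59 siRNA the minus-strand site rose 5.19-fold (3.24 to 8.77). The minus-strand levels were 12.8, 12, 2.30 and 5.08 CPM with CF Im25, CF Im59, scrambled and no siRNA. As stated above, the plus-strand fall is in part fixed by the choice of sites. On chromosome 1 the plus-strand site at 46159837 rose 4.35-fold (2.98 to 6.54) and the minus-strand site at 46160353 had 64 against 201 reads, a ratio of 0.286 (0.212 to 0.380), with CF Im25 siRNA. After CF Im59 siRNA the plus-strand site at 7816074 of chromosome 17 had a ratio of 0.395 (0.319 to 0.486) and its partner at 7816658 one of 2.26 (1.46 to 3.60), while on chromosome 6 plus 3153317 had 2.55 (1.86 to 3.56) and minus 3153904 had 0.450 (0.401 to 0.505). At the chromosome 17 pair the plus-strand site had 12.2 CPM with CF Im59, 31.0 with scrambled and 20.6 with no siRNA, and the minus-strand site 7.28, 3.23 and 2.84 CPM. At the chromosome 6 pair the plus-strand site had 15.0, 5.88 and 15.7 CPM, and the minus-strand site 41.1, 91.2 and 45.4 CPM. Against no siRNA, the chromosome 17 plus-strand site and both chromosome 6 sites were therefore less than 2-fold apart, and only the chromosome 17 minus-strand site was still over 2-fold higher. That minus-strand site had 6.40 to 7.39 CPM in the CF Im25 and both RNase I libraries. It met the limit of 5 CPM only with the CF Im59 library counted, so its rise is in part fixed by the choice of sites.

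With CF Im68 siRNA, plus 50792440 of chromosome 14 had 276 against 26 reads, a ratio of 4.54 (3.03 to 7.08), and minus 50793061 had 48 against 106, a ratio of 0.194 (0.135 to 0.275). The plus-strand site had 25.2 CPM with CF Im68 siRNA and 1.38 to 5.55 CPM in the other libraries. It thus met the limit of 5 CPM through the CF Im68 library, and its rise is in part fixed by the choice of sites. On chromosome 5, plus 131706526 and minus 131706658, 132 nt apart, had ratios of 4.37 (2.21 to 9.87) and 0.163 (0.110 to 0.237). The minus-strand site there had 22.4 CPM with scrambled siRNA after RNase I and 2.90 to 9.45 CPM in the other libraries. It met the limit of 5 CPM through that scrambled library, and its fall is in part fixed by the choice of sites. The third such pair lies on chromosome 10 (112659764 and 112659908) and is described with its locus below. Of the 7 opposite pairs with CF Im68 siRNA, 6 had the plus-strand site higher and the minus-strand site lower. Pairs of the same locus are not separate observations. With 1 pair per locus, 3 opposite pairs were left, and 3 had the plus-strand site higher.

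The use of a member within its unit was then followed as its percent of the unit's reads, over units of at least 2 sites with at least 50 reads in both libraries; a call needed a change of 20 points and a Newcombe 95% interval that excluded 0. This measure does not depend on the scaling. With CF Im25 siRNA 32 members of 735 gained (4.35%, beside 8.25% of all sites) and 59 lost share (8.03%, beside 8.91%). CF Im68 siRNA gave 20 gains (2.95%, beside 9.94%) and 56 losses (8.26%, beside 12.3%) of 678. CF Im59 siRNA gave 12 gains and 14 losses of 737 (beside 2.16% and 2.02% of all sites), and scrambled against no siRNA 4 and 3 of 740 (beside 0.77% and 0.91%). With CF Im25 and CF Im68 siRNA losses outnumbered gains among members, as they did over all sites. Members were below all sites in both directions, by the wider margin for gains.

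How often the RNA of one strand ends past the end of its opposite was measured as the percent of the unit's reads that end past the partner site in the direction of transcription. It was read for each strand of a pair whose unit had ends on both sides of the partner and at least 50 reads in both libraries, and called at 20 points as above. For CF Im25 siRNA 1114 strands passed the minimum and 382 of them had ends on both sides. With CF Im25 siRNA the percent fell at 36 strands and rose at 8 of 382 (9.42% and 2.09%), beside 9.9% and 2.35% over the strands of all pairs up to 5000 nt apart. With CF Im68 siRNA it fell at 33 and rose at 6 of 350 (9.43% and 1.71%), beside 11.1% and 1.46%. CF Im59 siRNA gave 5 falls and 7 rises of 383, beside 1.84% and 3.34%, and scrambled against no siRNA 3 falls and 1 rise of 384, beside 1% and 0.833%. Falls outnumbered rises with CF Im25 and CF Im68 siRNA. The falls lay in 28 units and the rises in 5 with CF Im25 siRNA, and in 26 and 4 units with CF Im68 siRNA. Where both member sites had at least 10 CPM, 12 strands fell and 6 rose with CF Im25 siRNA, so its excess of falls lay mostly at weaker sites. With CF Im68 siRNA 17 fell and 3 rose there. Strands of the same unit share their reads and are not separate observations. The pairs up to 5000 nt apart hold the members themselves. In the pairs 1001 to 5000 nt apart alone, the percent fell at 23 and rose at 6 of 214 strands with CF Im25 siRNA (10.7% and 2.80%), fell at 28 and rose at 2 of 198 with CF Im68 siRNA (14.1% fell), and fell at 6 and rose at 13 of 216 with CF Im59 siRNA (2.78% and 6.02%). The share of falls among members was thus lower than in these more distant pairs with both CF Im25 and CF Im68 siRNA, and these differences were not tested. Changes of any size were below 0 at 236 strands and above 0 at 145 with CF Im25 siRNA, and at 230 and 117 with CF Im68 siRNA, against 173 and 209 with CF Im59 siRNA and 214 and 169 for scrambled against no siRNA.

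The ends of overlapping pairs ran past the partner more often than those of separated pairs, which the definition fixes in part. Over the 140 strands of overlapping pairs tested in every library, the median percent past the partner was 54.7% with CF Im25 siRNA, 66.8% with CF Im59 siRNA, 65.6% with scrambled and 69.8% with no siRNA in the alkaline libraries, and 55.2% with CF Im68 siRNA against 72.7% with scrambled siRNA after RNase I. The quartiles overlapped widely, at 29.0% to 87.1% with CF Im25 siRNA and 33.3% to 86.5% with scrambled siRNA. The means over these strands lay closer together, at 54.9% with CF Im25 siRNA against 59.1% in its scrambled control, and at 53.8% with CF Im68 siRNA against 60.7% in its own control. Strand by strand, the median change of overlapping pairs was -2.38 points with CF Im25 siRNA (160 strands) and -3.40 points with CF Im68 siRNA (140 strands), far less than the gap between the medians of the libraries. Among the overlapping strands 19 fell and 2 rose with CF Im25 siRNA (of 160) and 17 fell and 1 rose with CF Im68 siRNA (of 140). Over the 209 strands of separated pairs, where the paired ends themselves do not cross but other sites of the unit do, the medians were 9.52%, 10.6%, 10.6% and 11.3%, and 7.10% against 8.38% after RNase I. Separated strands fell in 17 cases and rose in 6 of 222 with CF Im25 siRNA, and fell in 16 and rose in 5 of 210 with CF Im68 siRNA.

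**Figure D4:**
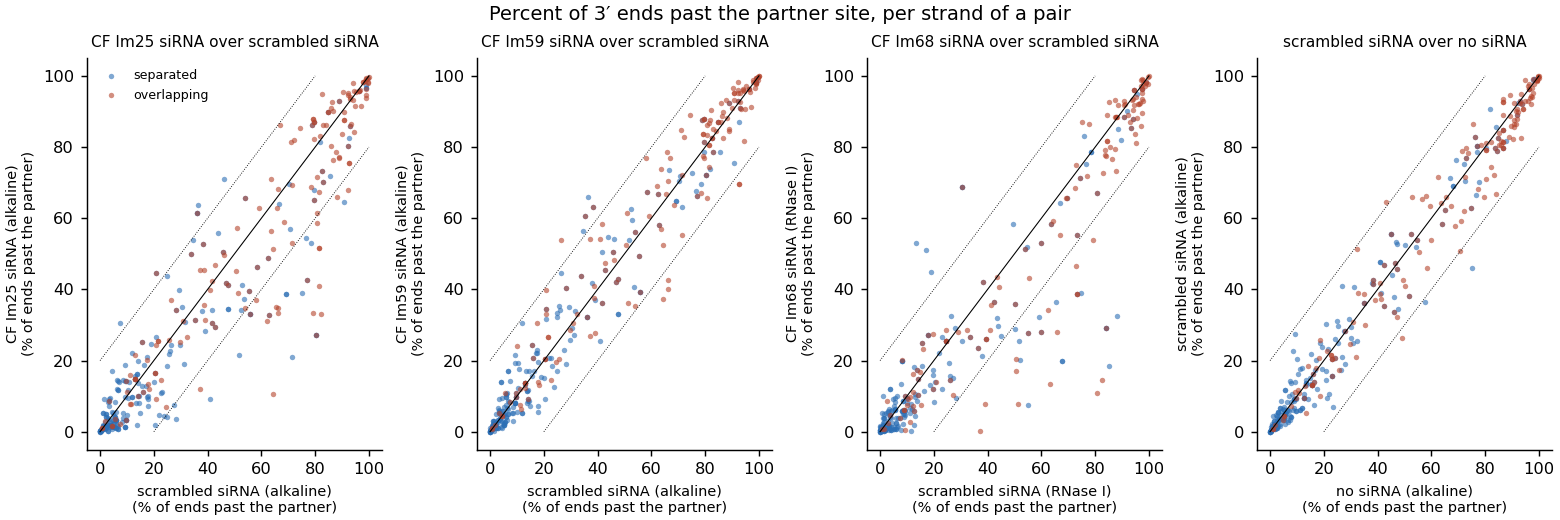
Percent of a unit's 3′ ends past the partner site for each strand of a pair, in the first-named library (vertical axis) against its control (horizontal axis), with separated pairs in blue and overlapping pairs in red; the solid line marks no change and dotted lines 20 points. With CF Im25 and CF Im68 siRNA most points beyond the dotted lines lie below them, and with CF Im59 siRNA or between the controls few points lie beyond either line.

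CF Im25 and CF Im68 siRNA share no library, so their changes can be set side by side strand by strand. Of 349 strands tested in both, 28 fell with CF Im25 siRNA and 33 with CF Im68 siRNA, and 14 fell in both, which is 50% of the CF Im25 falls and 42.4% of the CF Im68 falls. Rises were 7 and 6, with 4 in both, and 0 strands were called in opposite directions. Across these strands, which come from 262 units, Pearson's r was 0.516 and Spearman's rho 0.274 between the 2 sets of changes. For CF Im59 and CF Im68 siRNA r was -0.183 and rho -0.248, with 0 shared calls and 2 opposite ones. The partner's own reads were also set beside the falls. Over 34 strands whose percent fell with CF Im25 siRNA, the partner's median log2 ratio was -0.17, with 5 partners called higher and 7 lower, against -0.08 over the 316 strands not called, with 39 higher and 41 lower. With CF Im68 siRNA the median was 0.11 over 27 strands that fell, against 0.05 over 264 strands not called. All partners called there were lower, 0 higher and 6 lower, while the strands not called had 11 higher and 16 lower.

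Chromosomes 8, 6 and 10 held the largest falls with CF Im25 siRNA. On chromosome 8, 10.5% of the 267 minus-strand reads ended past the plus-strand site at 145538384 with CF Im25 siRNA, against 64.5% of 228 reads with scrambled siRNA, a change of -54.0 points (-60.7 to -46.3). This control again differed from the cells without siRNA, which had 43.2%, and with CF Im59 siRNA the value was 37.2%. After RNase I it was 27.9% with CF Im68 siRNA and 28.9% with scrambled siRNA, so no such change was seen there. The falls on chromosomes 6 and 10 were seen with both subunits and are taken up below. Rises with CF Im25 siRNA included the plus strand of chromosome 7 past 150936062, at 63.6% against 36.5% (27.1 points, 20.6 to 33.3), where no siRNA had 57.6%, and the plus strand of chromosome 12 past 56864737, at 44.7% against 20.8% (23.9 points, 14.2 to 31.8), where no siRNA had 24.0%. The chromosome 7 change was 0 points when gaps within a unit were limited to 2000 nt, so this call rests on joining over wider gaps.

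With CF Im59 siRNA the chromosome 7 strand rose as well (66.0% against 36.5%, 29.5 points, 23.3 to 35.5), followed by the minus strand of chromosome 8 past 94740670 (53.9% against 26.2%, 27.7 points) and the plus strand of chromosome 11 past 31453949 (60.5% against 35.2%, 25.3 points). Falls were -27.3 points on chromosome 8 past 145538384, -26.1 points on the minus strand of chromosome 1 past 151264381 (40.1% against 66.2%) and -23.4 points on the plus strand of chromosome 22 past 50883069 (42.6% against 66.0%). None of these 6 changes reached 20 points against no siRNA, and with gaps of at most 2000 nt the rises on chromosomes 7 and 8 were 0 points. The chromosome 7 and chromosome 8 strands were also among the 4 calls of scrambled against no siRNA: past 145538384 the percent rose by 21.3 points, and it changed by -22.8 points past 94740670 and by -21.1 points past 150936062. The fourth was the minus strand of chromosome 5 past 131706526, at 46.1% with scrambled siRNA against 75.1% with no siRNA. With gaps of at most 2000 nt the differences past 94740670, 150936062 and 131706526 were 0 points, and with gaps of up to 10000 nt the difference past 94740670 was -12.4 points.

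With CF Im68 siRNA the largest fall was on the minus strand of chromosome 16: 14.4% of 444 reads ended past the plus-strand site at 75480082, against 82.6% of 149 reads with scrambled siRNA, a change of -68.1 points (-74.2 to -60.4). With CF Im25 siRNA the value was 67.9%, against 92.3% with scrambled and 93.1% with no siRNA, and with CF Im59 siRNA 95.1%. On chromosome 9 the minus-strand unit between 88641062 and 88643782 had 32.5% of 4261 reads past the plus-strand site at 88641877, against 88.3% of 1860 reads (-55.8 points, -57.8 to -53.7). In the alkaline libraries the values were 38.9% with CF Im25 siRNA, 72.7% with CF Im59 siRNA, 75.1% with scrambled and 72.3% with no siRNA. The reads moved to the minus-strand site at 88642615, which held 66.6% of the unit with CF Im68 siRNA against 11% with scrambled siRNA. At the same locus the plus-strand site at 88641877 had 1 read with CF Im68 siRNA against 18 with scrambled siRNA, a ratio of 0.0238 (0.00057 to 0.151), and 29 reads with CF Im25 siRNA against 344. With CF Im25 siRNA the minus-strand site at 88642615 rose 3.75-fold (3.36 to 4.20). The paired sites thus changed in opposite directions in both knockdowns, with the minus-strand site higher and the plus-strand site lower. The plus-strand site had under 50 reads in both RNase I libraries, so its fall there was not called. Whether the level of the whole minus-strand unit changed was not tested. A rise with CF Im68 siRNA was seen on the minus strand of chromosome 9 past 35661184, at 51.0% against 17.3% (33.7 points, 27.0 to 39.7); the alkaline libraries had 82.5% to 92.4% there. With gaps of at most 2000 nt this change was 0 points, and 0 of the 6 rises with CF Im68 siRNA were left.

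At the locus on chromosome 6 plus-strand ends lay more often short of the partner and minus-strand ends more often past it in both knockdowns. The plus-strand unit has 10 sites from 170103179 to 170106450, and the minus-strand unit 4 sites from 170109796 down to 170104004. Past the minus-strand site at 170104004 lay 27.3% of 1477 plus-strand reads with CF Im25 siRNA, against 80.3% of 719 with scrambled siRNA (-53.0 points, -56.5 to -49.1), with 72.1% for CF Im59 and 77.0% for no siRNA. With RNase I it was 29.2% with CF Im68 siRNA against 84.0% with scrambled siRNA. The plus-strand site at 170103355, upstream of the partner, held 54.7% of its unit with CF Im25 siRNA against 11.3%, and 35.6% with CF Im68 siRNA against 5.35%. The site at 170104963, past the partner, held 7.65% against 34.9% and 2.65% against 18.9%.

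On the minus strand of this locus the percent of ends past the partner at 170104963 rose. The site at 170104004, the last of its unit, held 61.3% of 564 reads with CF Im25 siRNA, against 36.1% of 244 with scrambled siRNA (25.3 points, 17.9 to 32.3), with 32.4% for CF Im59 and 34.9% for no siRNA. It held 68.8% of 276 reads with CF Im68 siRNA against 30.4% of 138 (38.4 points, 28.5 to 47.2). The minus-strand site at 170107140 held 28.4% against 58.6% with CF Im25 siRNA and 14.5% against 68.8% with CF Im68 siRNA. The first site of the unit, at 170109796, also held a larger share, at 4.79% against 2.87% with CF Im25 siRNA and 15.9% against 0.725% with CF Im68 siRNA. The minus-strand change depends on how sites are joined: with gaps of at most 2000 nt the sites lie in different units and the change is 0 points in both knockdowns, and with gaps of up to 10000 nt the CF Im25 change was 9.82 points, under the 20 points of a call.

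At the locus on chromosome 10 the minus-strand ends lay less often past the partner in both knockdowns, and the plus-strand shares shifted by over 20 points with CF Im68 siRNA only. The minus-strand unit has 6 sites between 112658489 and 112659992, and past the plus-strand site at 112659764 it had 21.1% of 213 reads with CF Im25 siRNA, against 71.2% of 441 with scrambled siRNA (-50.1 points, -56.5 to -42.7), with 63.1% for CF Im59 and 66.7% for no siRNA. With CF Im68 siRNA it was 18.4% of 359 against 85.1% of 161 (-66.7 points, -72.7 to -59.0). The most distal site, at 112658489, held 16% against 57.1% with CF Im25 siRNA and 3.62% against 47.8% with CF Im68 siRNA. On the plus strand the upstream site at 112658475 held 28.1% against 14.4% with CF Im25 siRNA and 79.8% against 47.9% with CF Im68 siRNA, while the distal site at 112659764 held 56.6% against 69.3% and 16% against 46.7%. The plus-strand differences with CF Im25 siRNA were under 20 points and were not called. In reads, this distal plus-strand site had 125 against 191 with CF Im68 siRNA (ratio 0.280, 0.222 to 0.353), and the upstream minus-strand site at 112659908 had 126 against 13 (4.15, 2.34 to 8.0). That minus-strand site had a mean of 5.35 CPM, with 11.5 CPM with CF Im68 siRNA and 2.77 to 6.68 CPM in the other libraries. It thus met the limit of 5 CPM through the CF Im68 library, and its rise is in part fixed by the choice of sites. The chromosome 6 and chromosome 10 loci are drawn because both were named for both subunits, a choice made after the values were seen.

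**Figure D5:**
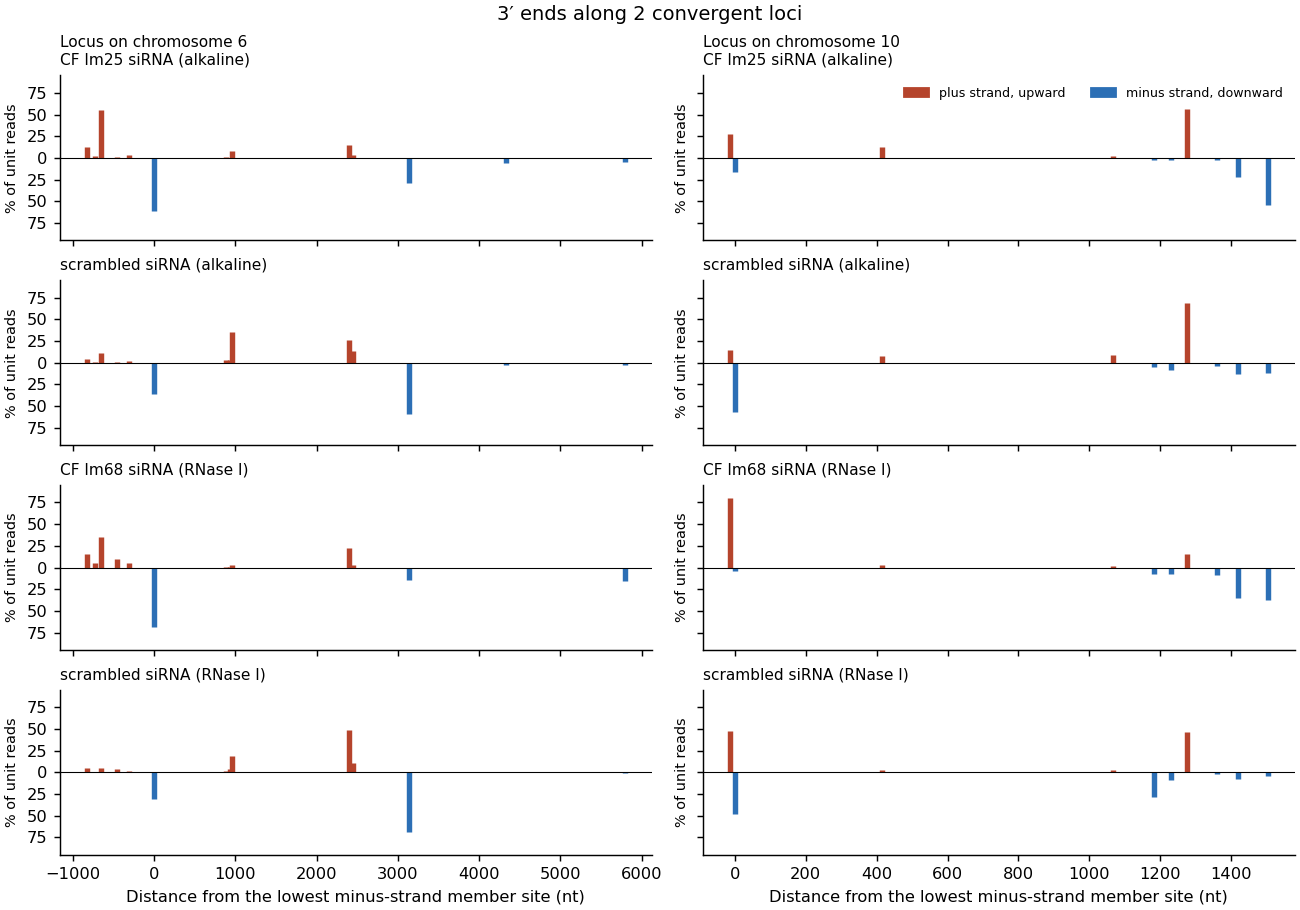
Percent of the reads of each strand's unit at every site of the chromosome 6 locus (left) and the chromosome 10 locus (right), with plus-strand sites drawn upward and minus-strand sites downward, against the distance in nt from the lowest minus-strand member site; rows are CF Im25 siRNA, its scrambled control, CF Im68 siRNA and its scrambled control. At the left locus the plus-strand bars move left of 0 and the minus-strand bar at 0 grows in both knockdowns, and at the right locus the minus-strand bar at 0 shrinks in both.

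The scrambled libraries of the alkaline and RNase I methods differed at more members than any siRNA comparison. Scrambled siRNA after RNase I against scrambled siRNA after alkaline hydrolysis gave 263 members higher and 390 lower of 1033 (63.2%, beside 64.7% of all sites). The percent past the partner was called higher at 41 and lower at 49 of 349 strands, beside 11.5% and 15.1% over pairs up to 5000 nt apart. The method and any difference between the cultures cannot be told apart here, and values after CF Im68 siRNA were therefore set only against the RNase I control.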

How the data were processed

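The deposited files give, per nucleotide and strand, raw counts of reads whose 3′ end lies there, 1 file per library; the authors left these counts unscaled, which the whole numbers show. The build is hg19 (GRCh37), per the submitters' processing notes. For the aligner, read filters and removal of PCR copies the sources used here give nothing, so intervals cover counting error only and can be too narrow.

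Sites, pairs and units were built in Python 3.11.15 (pandas 2.3.3, numpy 2.4.6, scipy 1.17.1) as the report states; a tie for the nearest site went to the higher minus-strand site. Reads were scaled to the library's reads at nuclear sites of at least 1 CPM; edgeR 4.0.16 served only for TMM factors. Count ratios have exact conditional binomial 95% intervals and differences of percents Newcombe intervals. The rules were tested on simulated counts with known changes larger than the thresholds and with counting error only. That test does not measure how often differences between single libraries are called.

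Members, lists and rules were chosen with earlier results of these data known. Loci were named by fixed rules: the 3 overlapping and 3 separated pairs with the strongest lower site, the 3 longest overlaps and the closest pairs, those at the limits, and per comparison the 3 largest called rises and falls with at least 100 reads (for CF Im25 and CF Im59 in the same direction against no siRNA) and the 3 largest opposite pairs. Further strands of a locus already named were left out, a condition added after the values were seen.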

Additional observations from a re-analysis of the deposited data

How the results depend on the processing

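No paired analysis was possible because each group held 1 library, and no replicate could be left out. Of the alternatives tried, 89 counts stayed within 1.5 times of the reported one, and 39 did not. Limits of 500 nt left 263 separated pairs; a level of 1 CPM gave 625 overlapping and 1113 separated pairs, and 10 CPM gave 82 and 247. For reads of a site, TMM scaling gave 61 rises for CF Im68 and 13 for scrambled against no siRNA; median of ratios gave 65 and 12, and 50 falls for scrambled against no siRNA; no minimum of reads gave 109 falls for CF Im68. With no siRNA as the control, CF Im25 gave 46 rises, and CF Im59 gave 23 rises and 45 falls. For ends past the partner, gaps of 2000 nt gave 3 rises (CF Im25), 3 falls (CF Im59), 0 rises (CF Im68) and 1 fall (scrambled against no siRNA). Gaps of 10000 nt gave 11 rises and 10 falls (CF Im59), 11 rises (CF Im68) and 4 rises (scrambled against no siRNA). Members of 10 CPM gave 12 falls, beside 6 rises (CF Im25), 3 rises and 1 fall (CF Im59), 3 rises and 17 falls (CF Im68) and 0 rises and 1 fall (scrambled against no siRNA). No siRNA as control gave 5 rises for CF Im25 and 1 rise and 3 falls for CF Im59. One pair per locus, chosen after seeing the data, gave 5 rises for CF Im25, beside 25 falls. For the share of the unit, no siRNA as control gave 20 rises (CF Im25) and 3 rises and 5 falls (CF Im59), gaps of 2000 nt 9 falls (CF Im59) and 2 rises (scrambled against no siRNA), and 20 reads 5 falls (scrambled against no siRNA). Fewer members or joined sites follow from the limits themselves; the cause of the other moves was not tested. Of the 114 values of named sites, 93 kept their call, 21 fell under the threshold and 0 changed sign. Depth limits the RNase I control most, where 730 of 1065 members had 50 reads.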
